A study of Mus musculus with 27 samples.

Results

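The 10 genes described here encode the iron hormone hepcidin and its mouse copy (Hamp, Hamp2), signals that set hepcidin (Bmp6, Id1, Hfe), proteins that carry iron into and out of cells (Trf, Tfrc, Slc40a1) and the iron store ferritin (Fth1, Ftl1). They were chosen by name, and all 10 were found among the 41388 gene identifiers of the count files. All 10 passed the filter on low counts and were among the 15121 genes tested. Their RNA was measured by sequencing 27 samples of whole liver from C57BL/6 female mice, all ovariectomized and, per the labels, 120 days old. A vehicle group received sesame oil, and 8 further groups received TCDD (2,3,7,8-tetrachlorodibenzo-p-dioxin), a long-lived ligand of the aryl hydrocarbon receptor, at 30, 10, 3, 1, 0.3, 0.1, 0.03 or 0.01 µg/kg. Each group had 3 samples, called livers here, and gavage was given every 4 days over 92 days, although one label also calls it daily.

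Hepcidin is a peptide hormone made mainly by hepatocytes. It binds ferroportin, the iron exporter encoded by Slc40a1, and causes its removal from the cell surface, so that iron stays inside macrophages, enterocytes and hepatocytes. Iron raises hepcidin transcription through bone morphogenetic proteins (BMPs), their receptors and SMAD proteins, and inflammation raises it through interleukin-6 and STAT3. Iron also acts after transcription: when cells are short of iron, iron regulatory proteins bind RNA hairpins, which blocks translation where the hairpin is in the 5′ UTR and protects the messenger where it is in the 3′ UTR.

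The sequences below show where the 2 hepcidin genes differ just before their start sites. Hamp lies at chr7:30942368-30944032 and Hamp2 at chr7:30922372-30924681 (GRCm38), both on the minus strand. The 150 bases before the start, from RefSeq on GRCm38.p6, are at chr7:30944030-30944179 for Hamp and chr7:30924182-30924331 for Hamp2. The gene spans are those of GENCODE M21. For Hamp2 that span reaches upstream of the RefSeq start, so its 150 bases lie inside the span. Capitals mark the BMP response motif GGCGCC and the STAT motif TTCNNNGAA, both searched on both strands and not overlapping each other.
Hamp: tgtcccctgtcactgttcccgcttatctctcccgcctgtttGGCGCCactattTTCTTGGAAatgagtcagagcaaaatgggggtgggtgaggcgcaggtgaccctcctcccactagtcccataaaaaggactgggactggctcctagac
Hamp2: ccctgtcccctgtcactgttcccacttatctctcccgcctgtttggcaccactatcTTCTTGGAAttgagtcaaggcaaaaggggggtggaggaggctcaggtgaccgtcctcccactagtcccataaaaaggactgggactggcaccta
In Hamp the BMP motif began at -109 and the STAT motif at -97 from the start, 6 bases apart. Hamp2 had the STAT motif at -94 and no GGCGCC, because of the single substitution G4A, counted from the motif's first base with the Hamp base first. Over 297 aligned bases of the 300-base windows the genes were 92.9% identical, with 21 differences. GGCGCC was present in 11.9% and TTCNNNGAA in 8.30% of 32851 windows of 300 bases, so a match is a description and not a site in use.

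Of the other members, RefSeq windows were matched for Bmp6, Hfe, Tfrc, Fth1 and Ftl1 but for none of Id1, Trf and Slc40a1. The core GCGTG of the dioxin response element, to which the aryl hydrocarbon receptor binds, was present in 32.4% of all windows on either strand. It was absent from the Hamp, Hamp2 and Hfe windows, and present in those of Bmp6 (at -222), Ftl1 (at -47) and at 1 of 2 Fth1 start sites (at -50). GGCGCC was found at -89 of 1 of the 2 Tfrc start sites and in no other of these windows. Both Tfrc start sites held GCGTG, at -117 and -64 for one and at -134 and -42 for the other. TGACNNNGC, the core of the antioxidant response element, was present in 12.4% of all windows and in those of Bmp6 (at -108) and Hfe (at -67).

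The hairpins bound by iron regulatory proteins are shown next, because they divide the transport and storage genes by where iron acts on them. The search in UTRs of GENCODE M21 transcripts took a C, 5 bases, the loop CAGTGN and 5 bases that pair with the first 5, with capitals marking the loop. Such a hairpin was present in 160 of 21901 coding genes (0.731%) and in 4 of the 10 iron genes.
Fth1 5′ UTR, chr19:9982738-9982754, plus strand: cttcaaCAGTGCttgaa
Ftl1 5′ UTR, chr7:45459785-45459801, minus strand: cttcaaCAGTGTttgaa
Slc40a1 5′ UTR, chr1:45925471-45925487, minus strand: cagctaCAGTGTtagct
Tfrc 3′ UTR, chr16:32631225-32631241, plus strand: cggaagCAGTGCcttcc
Tfrc 3′ UTR, chr16:32631604-32631620, plus strand: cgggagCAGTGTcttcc
Tfrc 3′ UTR, chr16:32631669-32631685, plus strand: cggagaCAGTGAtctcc
Tfrc 3′ UTR, chr16:32631716-32631732, plus strand: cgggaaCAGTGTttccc
Counts of reads measure the amount of messenger; its translation, which the 5′ hairpins of ferritin and ferroportin control, was not measured.

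Total counts ranged from 11050391 to 30873586 in 26 libraries and came to 434011 in the second 0.3 µg/kg library. Cyp1a1, the standard target of the aryl hydrocarbon receptor, stood at 3.12 ± 0.605 CPM (SD, n = 3) in vehicle, 147 ± 28.9 at 0.03 µg/kg and 7201 ± 652 at 30 µg/kg. CPM stands for a gene's counts relative to a library total scaled by TMM, which evens out library composition. Libraries of the 0.01 to 10 µg/kg groups carried index sequences that no vehicle library had. Those of the 0.3 to 10 µg/kg groups are called the second index set here, and all others the first. Whether the sets were handled as separate batches is not known from the indices. For the 0.3 to 10 µg/kg groups, dose and index set cannot be told apart in a comparison with vehicle. The 30 µg/kg libraries carried the vehicle indices, so the comparison of 30 with 10 µg/kg crosses index sets too. Shared indices do not show that vehicle and 30 µg/kg libraries were sequenced together. Any difference of run between them cannot be told apart from dose. The first 1 µg/kg library stood apart, with 4934 CPM of the acute-phase gene Saa1 against 20.5 to 31.9 in vehicle and a summed neutrophil marker level of 1094 CPM against 1.203 to 2.61. The third 30 µg/kg library followed, with 1997 CPM of Saa1. The labels number the samples of a group but do not say that each came from a separate animal, so p-values measure the spread between these samples, which may be technical.

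Both hepcidin genes fell at the top of the dose range. Hamp stood at 1817, 667 and 1320 CPM in the 3 vehicle livers, at 521, 615 and 456 CPM at 10 µg/kg, and at 180, 255 and 145 CPM at 30 µg/kg. Every 10 µg/kg liver lay below the lowest vehicle liver, and every 30 µg/kg liver below the lowest 10 µg/kg liver. On the log2 scale the difference from vehicle at 30 µg/kg was -2.71 (SE 0.36, adjusted p = 2.14e-06), a level 6.56-fold lower, and -1.26 at 10 µg/kg (SE 0.34, adjusted p = 0.00908). These and all adjusted p-values below come from edgeR's quasi-likelihood test with Benjamini-Hochberg adjustment over the 15121 genes, and a gene is called when that p is below 0.05. The 10 µg/kg call was lost without the first vehicle liver (adjusted p = 0.0881), and the same held for the 10 µg/kg liver numbered 3 (adjusted p = 0.0580).

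At lower doses Hamp was not called. Its group means were 1560, 1396 and 1257 CPM at 0.01, 0.03 and 0.1 µg/kg, and 971, 984 and 944 CPM at 0.3, 1 and 3 µg/kg, beside 1268 ± 577 CPM (SD, n = 3) in vehicle. Ordered by group mean, 30 µg/kg against 10 µg/kg was the single step of Hamp at which the livers of neighbouring groups did not overlap. The direct comparison of 30 with 10 µg/kg gave -1.46 (SE 0.34, adjusted p = 0.0206), a call lost under 5 of 15 alternatives with adjusted p of up to 0.170, while the difference ran from -1.71 to -1.30. Among those 5 were the fits without the first or the second 10 µg/kg liver and without the first or the third 30 µg/kg liver. In this comparison too, dose and index set cannot be told apart.

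Hamp2 fell further. It stood at 430, 166 and 407 CPM in vehicle, 37.7, 72.4 and 17.8 CPM at 10 µg/kg and 13.6, 13.8 and 3.67 CPM at 30 µg/kg. Neither dose overlapped vehicle, and the 10 and 30 µg/kg groups did not overlap each other. The log2 fold change was -5.01 at 30 µg/kg (SE 0.79, adjusted p = 6.10e-05), 32.1-fold lower, and -2.97 at 10 µg/kg (SE 0.72, adjusted p = 0.00549), 7.85-fold lower. Within the second index set, 10 µg/kg stood below 0.3 µg/kg (-3.24, SE 0.74, adjusted p = 0.00618), where the livers held 254, 652 and 339 CPM. For Hamp the same comparison gave -0.86 (SE 0.34, adjusted p = 0.0941) and was not called.

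One liver at a lower dose stood close to these levels. The first 1 µg/kg library held 26.4 CPM of Hamp2, against 276 in each of the others of its group, while its Hamp was 710 CPM against 1190 and 1053. It is the library with the highest Saa1. The 1 µg/kg group as a whole was not called for Hamp2 (-0.79, SE 0.67, adjusted p = 0.449).

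**Figure D1:**
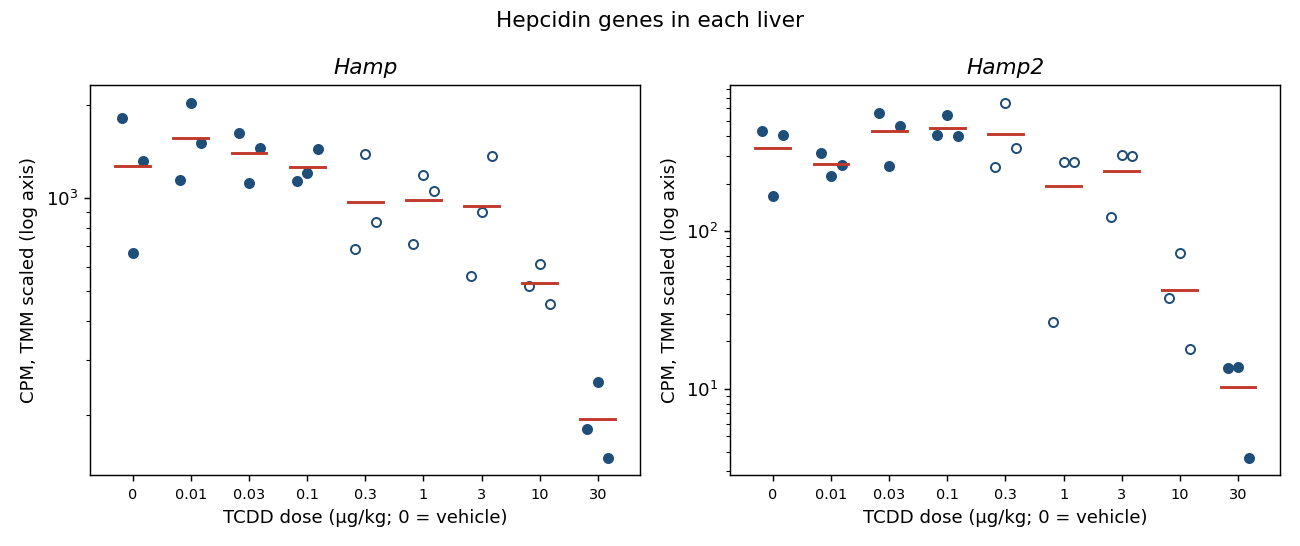
Hamp and Hamp2 in each liver by TCDD dose, as CPM with TMM scaling on log axes. Each point is 1 liver, open points are the groups with the second index set, and red bars are group means. The 30 µg/kg livers lie between 145 and 255 CPM for Hamp and between 3.67 and 13.8 CPM for Hamp2, below every liver of every other group for both genes.

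The balance between the hepcidin genes also shifted. Hamp2 made up 19.1, 20.0 and 23.6% of all Hamp and Hamp2 counts in the vehicle livers, 6.75, 10.5 and 3.76% at 10 µg/kg and 7.04, 5.11 and 2.46% at 30 µg/kg. Counting error is small beside these differences: the exact 95% binomial interval was 18.8 to 19.4% in the first vehicle liver and 1.92 to 3.10% in the third 30 µg/kg liver. The mean share was 20.9 ± 2.36% (SD, n = 3) in vehicle and 4.87 ± 2.30% at 30 µg/kg, a difference of -16.0 percentage points. An exact two-sided permutation test gave p = 0.1 for 10 and for 30 µg/kg against vehicle, the smallest that 3 against 3 allows, and 0.267 after adjustment over the 8 doses.

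At 0.3 µg/kg the share was instead 27.02, 31.97 and 28.80%, all above vehicle (exact permutation p = 0.1, adjusted 0.267). Some livers had shares below the vehicle range at doses below 10 µg/kg too. The 1 µg/kg livers had 3.58, 18.9 and 20.8%, with a mean of 14.4% (exact permutation p = 0.4, adjusted 0.533). The 0.01 µg/kg livers had 21.3, 9.98 and 14.9%, with a mean of 15.4% (exact permutation p = 0.3, adjusted 0.48). The genes are close copies, and reads that fit both were not counted, so the split between them is less certain than their sum. Hamp2 also shares 15.3% of its exonic bases with Gm44662 on the other strand.

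**Figure D2:**
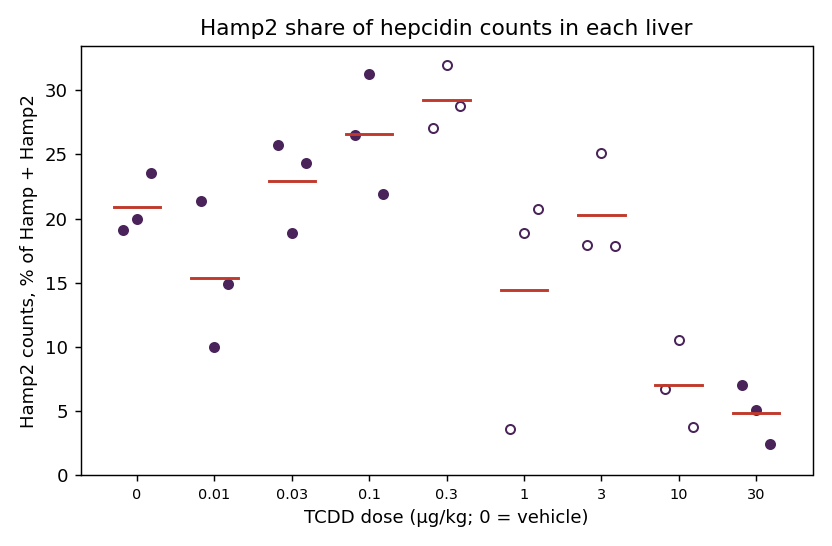
Hamp2 counts as a percentage of Hamp plus Hamp2 counts in each liver by TCDD dose. Points are livers, open points are the groups with the second index set, and red bars are group means. The vehicle livers lie at 19.1 to 23.6%, the 10 µg/kg livers at 3.76 to 10.5% and the 30 µg/kg livers at 2.46 to 7.04%.

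Hepatocyte messengers fell with hepcidin. Of 8 hepatocyte markers, 7 (such as Alb and Apoa1) were called lower at 30 µg/kg, or 4 without the third 30 µg/kg liver, beside 19.4% of all genes. Hnf4a was not called (-0.20, adjusted p = 0.421). Their summed level was 59771 to 100566 CPM against 123140 to 233525 in vehicle. Per 1000 CPM of these markers, Hamp stood at 4.15 to 14.8 in vehicle and 2.43 to 2.75 at 30 µg/kg. Hamp2 stood at 1.03 to 3.49 in vehicle and 0.0614 to 0.209 at 30 µg/kg. At 30 µg/kg neither ratio overlapped vehicle. At 10 µg/kg Hamp stood at 3.62 to 4.98 per 1000 CPM, which overlapped vehicle. Hamp2 there stood at 0.141 to 0.548, without overlap. In whole liver, fewer cells of a type and less RNA per cell cannot be told apart.

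The signalling members moved less. Of the 10 iron genes, 4 were called at 30 µg/kg, 2 at 10 µg/kg, 1 at 1 µg/kg and none at the other 5 doses. Over all tested genes the called share was 0% for 0.01 µg/kg and 0.0397% for 0.03 µg/kg, then 0.192% and 1.18% for the next 2 doses. It was 19.4% for 1 µg/kg and 10.1% for 3 µg/kg, and reached 22.5% for 10 µg/kg and 37.4% for 30 µg/kg. The count of 4 of 10 at 30 µg/kg is thus close to the background, with 2 higher and 2 lower beside 18% and 19.4% of all genes in those directions. Over all genes, 2720 were called higher and 2940 lower, and with RLE scaling 3345 higher and 2299 lower; the 4 iron genes kept their direction and call. At an unadjusted p below 0.05 the counts were 0, 0, 0, 1, 1, 0, 3 and 5 from the lowest dose to the highest. DESeq2 also called none of the 10 at the 5 doses without a call.

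Bmp6, the ligand released by sinusoidal endothelial cells in iron loading, was scarce in whole liver. It stood at 3.99, 2.25 and 2.41 CPM in vehicle, 3.98, 6.73 and 5.27 CPM at 10 µg/kg and 3.48, 3.65 and 2.98 CPM at 30 µg/kg. Of the 10 µg/kg livers, 2 lay above all vehicle livers and the remaining one lay just below the highest. The 10 µg/kg difference was 0.87 (SE 0.35, adjusted p = 0.0712), not called here but called with RLE (adjusted p = 0.0494) or upper-quartile scaling (0.0480), in the 6 libraries alone (0.0371) and without the first vehicle liver (0.0339). At 30 µg/kg it was 0.22 (SE 0.35, adjusted p = 0.659). Summed markers of sinusoidal endothelial cells were at 410 to 461 CPM at 10 µg/kg, 275 to 389 in vehicle and 237 to 398 at 30 µg/kg, and their part in the Bmp6 values was not tested. The shallow 0.3 µg/kg library had no Bmp6 count, which allows up to 8.62 CPM (3 counts on the same scale, counting error only).

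Id1 is a transcription regulator induced by BMP and SMAD signalling in the same way as hepcidin. Its trend over all doses was negative (below), but its means at 0.01 to 0.1 µg/kg lay above vehicle and it was called at no single dose. Vehicle livers held 23.1, 12.6 and 21.8 CPM, and 30 µg/kg livers held 16.5, 7.41 and 7.18 CPM. The first 30 µg/kg liver lay above the lowest vehicle liver, so the groups overlapped. The log2 fold change at 30 µg/kg was -0.88 (SE 0.39, adjusted p = 0.0809). It was called without the first 30 µg/kg liver (-1.36, adjusted p = 0.0182) and without the second vehicle liver (-1.11, adjusted p = 0.0470). The group means ran from 19.2 CPM in vehicle through 26.9, 31.1 and 27.9 CPM at 0.01 to 0.1 µg/kg to 7.58, 18.7, 13.7, 11.6 and 10.4 CPM at 0.3 to 30 µg/kg.

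Hfe, the membrane protein whose loss causes haemochromatosis and which helps hepatocytes sense transferrin iron, stayed in a narrow range. It stood at 58.2, 48.5 and 53.1 CPM in vehicle and 48.9, 50.6 and 46.95 CPM at 30 µg/kg (-0.13, SE 0.16, adjusted p = 0.576). The livers of neighbouring groups overlapped at every step of its order by mean, and the lowest liver was the shallow one at 0.3 µg/kg (25.9 CPM).

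A linear trend over dose rank, which uses all 27 livers, was called for 5 of the 10 genes, beside 46.6% of all genes. This fit crosses index sets and does not separate them from dose. Per step of dose, Hamp changed by -0.26 on the log2 scale (SE 0.049, adjusted p = 8.10e-05), Hamp2 by -0.42 (SE 0.12, adjusted p = 0.00714) and Id1 by -0.18 (SE 0.045, adjusted p = 0.00166). Tfrc changed by 0.14 (SE 0.041, adjusted p = 0.00648) and Fth1 by 0.097 (SE 0.030, adjusted p = 0.00833). Without the 30 µg/kg group 2 of these calls were left, those of Hamp and Id1. Within the second index set none was left. There Id1 changed by -0.01 per step (adjusted p = 0.990) and Fth1 by 0.017 (adjusted p = 0.956), whereas Hamp changed by -0.24 (SE 0.12, adjusted p = 0.268), Hamp2 by -0.85 (SE 0.33, adjusted p = 0.160) and Tfrc by 0.098 (SE 0.14, adjusted p = 0.752). Within the first set 4 were left, Id1 being lost (adjusted p = 0.0627). Leaving out the livers numbered 1 also left 3 calls, without Fth1 (adjusted p = 0.0736) and Hamp2 (adjusted p = 0.148), and so did leaving out those numbered 3, without Fth1 (adjusted p = 0.0664) and Tfrc (adjusted p = 0.114).

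Transferrin receptor rose at the top dose. Tfrc encodes the receptor that brings transferrin-bound iron into cells. It stood at 11.8, 31.4 and 13.5 CPM in vehicle, 12.9, 25.4 and 27.6 CPM at 10 µg/kg and 54.3, 44.5 and 76.4 CPM at 30 µg/kg. All 3 livers at 30 µg/kg lay above every liver of every other group. The log2 fold change was 1.63 (SE 0.33, adjusted p = 0.000506), 3.10-fold, and the call held under all 15 alternatives, with adjusted p of at most 0.0132.

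Against 10 µg/kg the Tfrc difference at 30 µg/kg was 1.41 (SE 0.33, adjusted p = 0.0220). This call was lost under 5 of 15 alternatives, those that also lost the Hamp call, with adjusted p of up to 0.178 and differences of 1.13 to 1.605, and it crosses index sets likewise. Together, Hamp and Tfrc were the 2 of 10 genes called between 30 and 10 µg/kg, beside 3.2% of all genes. Between 10 and 0.3 µg/kg the count was 1 of 10, Hamp2, beside 13.3%. At 1 µg/kg Tfrc was not called (0.67, SE 0.33, adjusted p = 0.165), but it was without the second vehicle liver (1.24, adjusted p = 0.00920), the vehicle liver in which it was highest.

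Tfrc is also high in dividing and erythroid cells. Of 8 markers of dividing cells, 7 were called higher at 30 µg/kg and 7 at 1 µg/kg, beside 18% and 11.1% of all genes. Their summed level was 8.51 to 9.73 CPM in vehicle, 30.7 to 67.9 at 30 µg/kg and 19.9 to 107 at 1 µg/kg, and their part in the Tfrc values was not tested. The 8 erythroid markers summed to 80.9 to 144 CPM at 30 µg/kg, inside the vehicle range of 77.7 to 247. Of the 6 erythroid markers tested, 1 was called higher and none lower at 30 µg/kg, beside 18% and 19.4% of all genes. The vehicle liver with the highest erythroid sum was also the one with the highest Tfrc and the lowest Hamp, Hamp2, Id1 and Bmp6.

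Transferrin itself, the plasma iron carrier that hepatocytes secrete, was not called at any dose. Trf stood at 2191, 3039 and 3673 CPM in vehicle and 3767, 3943 and 3204 CPM at 30 µg/kg (0.29, SE 0.30, adjusted p = 0.476). The highest value, 7019 CPM, was in the first 1 µg/kg liver, while its group mates had 2687 and 3617 CPM. In GENCODE M21, Trf shares 63.5% of its exonic bases with a read-through model on the same strand, Gm20425. If the annotation used for counting, which is not given, held that model, reads that fell on both could not be assigned.

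The exporter changed at a middle dose and not at the top. Slc40a1 encodes ferroportin, the known route of iron out of cells and the target of hepcidin. It stood at 143, 149 and 162 CPM in vehicle, 306, 216 and 250 CPM at 1 µg/kg and 126, 121 and 148 CPM at 30 µg/kg. Of the 8 doses it was called at 1 µg/kg alone (log2 difference 0.77, SE 0.17, adjusted p = 0.00177), without overlap with vehicle, and no other member was called at that dose. Without the first 1 µg/kg liver the difference was 0.63 (adjusted p = 0.0188). At 10 and 30 µg/kg it was -0.12 (adjusted p = 0.675) and -0.20 (SE 0.16, adjusted p = 0.360). The 0.3 µg/kg livers, at 172, 164 and 217 CPM, also lay above every vehicle liver. Slc40a1 was not called there (0.30, SE 0.17, adjusted p = 0.592), and the second of these libraries is the shallow one.

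Macrophages carry much of the liver's ferroportin. All 8 Kupffer cell markers (such as Clec4f, Vsig4 and Cd5l) were called higher at 1 µg/kg, or 1 in the 6 libraries alone, beside 11.1% of all genes. Their summed level was 1741, 460 and 1157 CPM in the 3 livers at 1 µg/kg, in the same order as Slc40a1 there, against 312 to 480 CPM in vehicle and 307 to 498 at 30 µg/kg. The sum was also 544 to 592 CPM at 3 µg/kg and 458 to 618 CPM at 10 µg/kg, where Slc40a1 was not called (0.24, adjusted p = 0.424, and -0.12). Their part in the Slc40a1 values was not tested, and the index set of the 1 µg/kg group and its dose cannot be told apart in this comparison.

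Of the ferritin chains, the heavy chain rose at the top dose. Fth1, whose product oxidises iron for storage, stood at 920, 1209 and 1200 CPM in vehicle and 3424, 2029 and 2467 CPM at 30 µg/kg, with no overlap. The log2 fold change was 1.25 (SE 0.29, adjusted p = 0.00129), 2.38-fold, and the call held under all 15 alternatives, with adjusted p of at most 0.0118. At 10 µg/kg Fth1 stood at 888, 1940 and 1871 CPM, where 2 livers lay above and 1 below all vehicle livers (0.50, SE 0.28, adjusted p = 0.224).

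Ftl1, the light chain that helps form the mineral core, was not called at any dose. It stood at 1204, 497 and 670 CPM in vehicle and 998, 967 and 762 CPM at 30 µg/kg (0.20, SE 0.34, adjusted p = 0.681). The ratio of Fth1 to Ftl1 was 1.66 ± 0.843 (SD, n = 3) in vehicle and 2.92 ± 0.720 at 30 µg/kg, with overlapping ranges of 0.764 to 2.43 and 2.10 to 3.43. Ferritin has many processed copies, and reads that fit more than 1 place were not counted. The 13 annotated copies held 378 counts over all libraries, beside 806220 for Fth1 and 473360 for Ftl1. Ftl1 also shares 26.5% of its exonic bases with Gm10252 on the other strand.

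**Figure D3:**
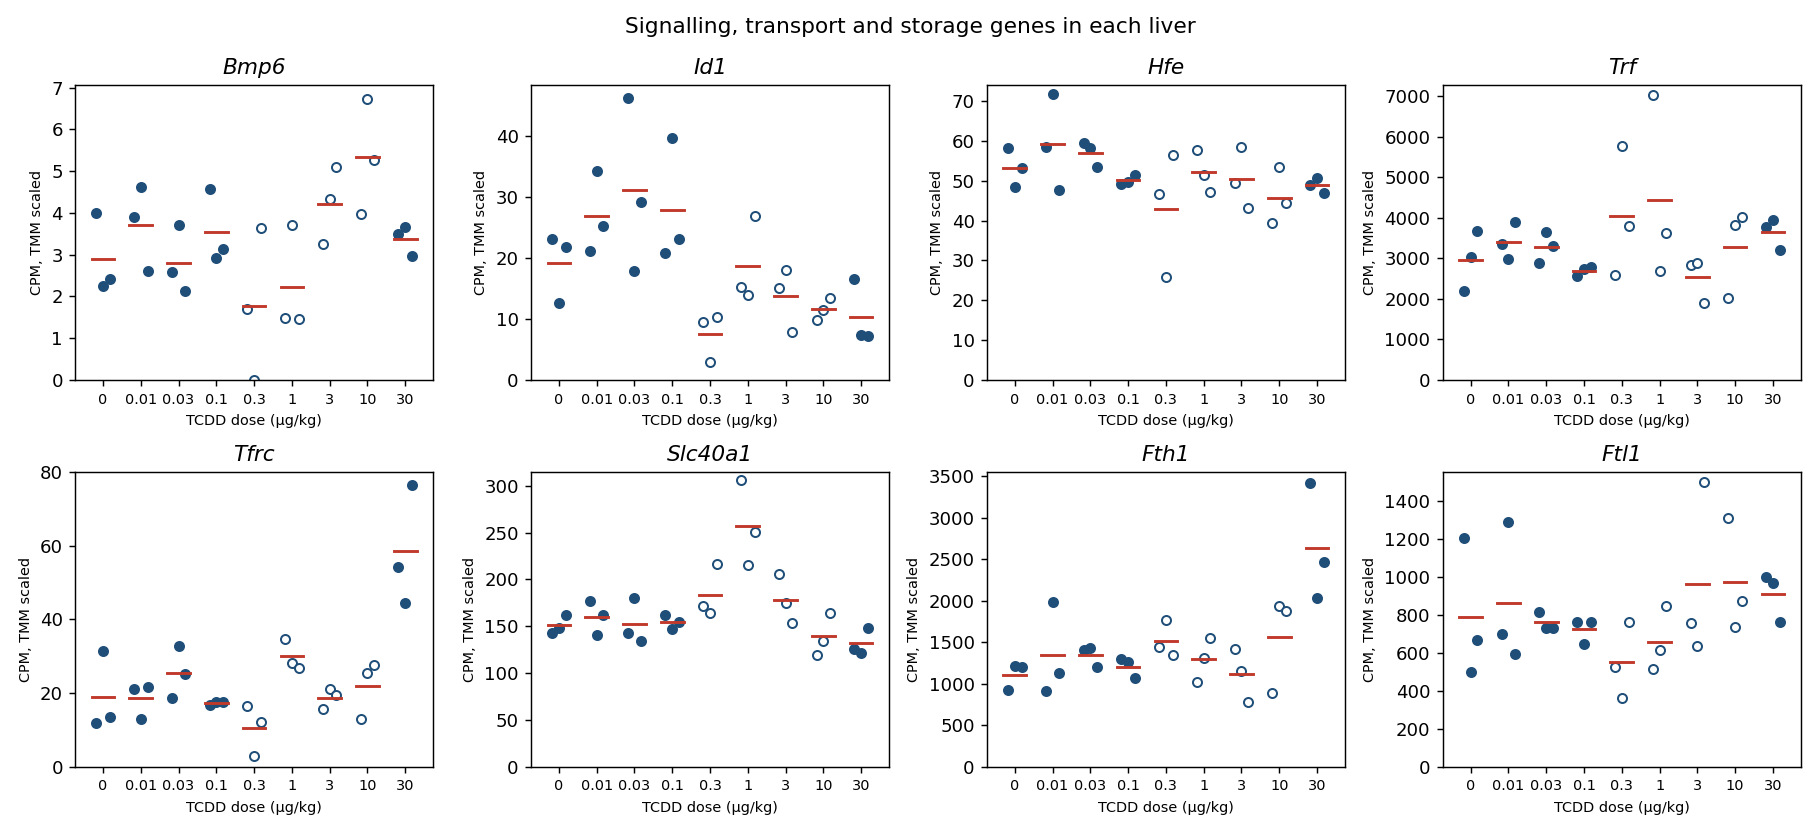
Bmp6, Id1, Hfe, Trf, Tfrc, Slc40a1, Fth1 and Ftl1 in each liver by TCDD dose, as CPM with TMM scaling on linear axes from 0. Points are livers, open points are the groups with the second index set, and red bars are group means. Tfrc (44.5 to 76.4 CPM) and Fth1 (2029 to 3424 CPM) are highest at 30 µg/kg, and Slc40a1 is highest at 1 µg/kg (216 to 306 CPM).

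Per kilobase of exon, the levels in vehicle spanned a wide range. Hamp was the most abundant at 3093 ± 1407 CPM per kilobase (SD, n = 3), followed by Trf at 894 ± 224, Ftl1 at 590 ± 275, Hamp2 at 573 ± 251 and Fth1 at 320 ± 47.4. The other 5 lay far below: Slc40a1 at 16.8 ± 1.11, Id1 at 16.5 ± 4.96, Hfe at 14.9 ± 1.36, Tfrc at 3.05 ± 1.76 and Bmp6 at 0.739 ± 0.247. Trf, Ftl1 and Hamp2 did not differ beyond their spread, nor did Slc40a1, Id1 and Hfe.

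The genes nearest to a member in dose pattern were taken by the root mean square difference in log2 fold change over the 8 doses, among 11699 candidates. For Hamp these were Rarres2 (0.147), Fads1 (0.154) and Tmem25 (0.173), and for Hamp2 they were Cyp2c69 (0.477), Sult2a8 (0.478) and Dct (0.481). For Tfrc they were Kbtbd8 (0.237), Pcm1 (0.257) and Flvcr1 (0.259), and for Bmp6 they were Tie1 (0.154), Cyb561d2 (0.183) and Nipal3 (0.194). All the fold changes share the vehicle livers, so this is a description of likeness and carries no test.

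Upstream of hepcidin, Tfr2, Hfe2 and Tmprss6 fell, while the list they belong to was called about as often as all genes. Of 17 tested genes of BMP and SMAD input, 5 were lower and 1 higher at 30 µg/kg, 4 lower and 1 higher at 10 µg/kg, and 3 lower at 1 µg/kg. Over all genes 37.4%, 22.5% and 19.4% were called at these doses in either direction, and 19.4%, 11.2% and 8.21% were lower; 18%, 11.3% and 11.1% were higher. The 4 lower at 10 µg/kg became 1 without the second 10 µg/kg liver and 2 without the first or the third vehicle liver; the 1 higher became 0 without any one of the 10 µg/kg livers or the third vehicle liver, and 4 in the 6 libraries alone. At 30 µg/kg 3 were higher with no filter on low counts, and 2 with DESeq2. The median log2 fold change at 30 µg/kg was -0.13 over the list and -0.01 over all genes. Tfr2, the hepatocyte sensor of transferrin saturation, stood at 491, 473 and 488 CPM in vehicle and 121, 255 and 177 CPM at 30 µg/kg (-1.39, SE 0.20, adjusted p = 6.74e-06). Hfe2, the gene of the BMP co-receptor hemojuvelin, stood at 99.9, 110 and 122 CPM in vehicle, 50.01, 59.1 and 59.7 CPM at 1 µg/kg and 61.3, 50.8 and 59.3 CPM at 30 µg/kg. Its log2 fold changes were -0.98, -0.92 and -0.96 at 1, 10 and 30 µg/kg (adjusted p = 0.000337, 0.000318 and 0.000108).

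Tmprss6, the protease that cleaves hemojuvelin and thereby holds hepcidin down, fell too (-0.83 at 30 µg/kg, SE 0.17, adjusted p = 0.000441). The activin receptor Acvr2b was lower at 30 µg/kg (-1.26, adjusted p = 0.00455), but not without the first vehicle liver (adjusted p = 0.0557). Smad5 (-0.17, adjusted p = 0.390) and Bmpr2 (0.23, adjusted p = 0.452), a signal carrier and a receptor of the same pathway, were not called. The fifth gene called lower was Neo1, and the gene called higher was Fkbp1a. Both were named after their values were seen.

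SMAD target genes other than hepcidin were not called at 30 µg/kg. Of the 9 tested, edgeR and DESeq2 each called 2 lower, Hamp and Hamp2, and 3 were lower at an unadjusted p below 0.05, with Id1 the third. Over all genes edgeR called 19.4% lower. Id2 gave -0.16 (SE 0.20, adjusted p = 0.561) and Id3 gave -0.60 (SE 0.37, adjusted p = 0.208), with livers at 83.1, 61.9 and 42.2 CPM against 110, 84.9 and 89.4 in vehicle and no overlap. The 6 genes other than Hamp, Hamp2 and Id1 had a median of 0.02, and none of them reached an unadjusted p below 0.05.

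Several genes listed for the inflammatory input were higher at 30 µg/kg, some of them in all livers and some by a wide margin in 1 liver. The list holds both parts of the signal, such as Il6st, and genes that the signal induces, such as Socs3. The genes named below as higher at 30 µg/kg are of the induced kind. Of 15 tested genes of interleukin-6 and STAT3 input, 7 were higher and 2 lower at 30 µg/kg (18% and 19.4% of all genes), with a median of 0.58, but 2 were higher without the third 30 µg/kg liver, and 1 was lower without the first 30 µg/kg or the third vehicle liver. At 1 µg/kg 7 were higher and 1 lower (11.1% and 8.21% of all genes). There 1 was higher in the 6 libraries alone, 2 were without the first 1 µg/kg liver, and none was lower without the second 1 µg/kg liver or the first or the third vehicle liver. Saa1, a serum amyloid of the acute phase, stood at 114, 153 and 147 CPM at 10 µg/kg, at 113, 190 and 1997 CPM at 30 µg/kg and at 4934, 48.6 and 72.2 CPM at 1 µg/kg. All of these livers lay above the vehicle range of 20.5 to 31.9 CPM. At 10 µg/kg it was not called (2.50, SE 1.24, adjusted p = 0.163). Its log2 fold change at 30 µg/kg was 4.98 (SE 1.38, adjusted p = 0.00806) and its adjusted p was 0.0973 without the third liver. Saa2 (5.52, adjusted p = 0.00656) lost its call likewise (adjusted p = 0.104).

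Socs3, the STAT3-induced inhibitor of the same signal, was above every vehicle liver in each liver at 10 and 30 µg/kg. It stood at 5.93, 6.69 and 9.35 CPM in vehicle, 18.1, 19.1 and 22.9 CPM at 10 µg/kg and 21.6, 17.7 and 26.1 CPM at 30 µg/kg (1.57, SE 0.35, adjusted p = 0.00124). Lcn2, a siderophore-binding acute-phase protein, stood at 80.9, 47.1 and 338 CPM at 30 µg/kg against 9.44, 7.48 and 6.86 CPM in vehicle (4.29, SE 1.13, adjusted p = 0.00572), and its call held under all 15 alternatives. Il6st, the shared receptor chain (0.08, adjusted p = 0.760), and Fgl1, a liver-secreted acute-phase protein (0.32, adjusted p = 0.674), were not called. Hamp, which this input induces, was at its lowest in the third 30 µg/kg liver, where Saa1 was highest of that group. That liver also had the lowest hepatocyte marker sum of the group, 59771 CPM. Per 1000 CPM of those markers its Hamp was 2.43, against 2.75 and 2.54 in the first and second livers. How these values are related was not tested. Neutrophil markers were called higher for 7 of 7 tested at 1 and at 30 µg/kg, beside 11.1% and 18% of all genes, with sums of 5.002 to 1094 and 49.2 to 117 CPM against 1.203 to 2.61 in vehicle, and their part was not tested.

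Among the genes of cell iron uptake, more fell than rose at 30 µg/kg: 7 of 16 tested were lower and 3 higher, with a median of -0.55, beside 19.4% lower and 18% higher among all genes and a median of -0.01. Tfrc was among those that rose. Slc39a14, the hepatocyte importer of iron not bound to transferrin, stood at 175, 239 and 191 CPM in vehicle and 67.1, 103 and 91.0 CPM at 30 µg/kg (-1.21, SE 0.21, adjusted p = 6.18e-05). Steap2, a ferrireductase of endosomes, was lower at 10 µg/kg (-1.81) and 30 µg/kg (-1.94, SE 0.24, adjusted p = 6.22e-07). Slc25a28, a mitochondrial iron importer, was higher at 10 µg/kg (1.02, adjusted p = 0.000204) and 30 µg/kg (0.99, SE 0.18, adjusted p = 0.000142).

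The plasma scavengers were not called at 30 µg/kg. Hpx, which binds heme, gave 0.36 (adjusted p = 0.489), and Hp, which binds haemoglobin, gave -0.76 (SE 0.61, adjusted p = 0.354). At 1 µg/kg Hpx was called (1.14, adjusted p = 0.0399) through the first liver, at 18319 CPM against 3616 and 4421, and its adjusted p was 0.980 without it.

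Of 6 genes of iron export, iron oxidation and heme transport, 3 were higher and none lower at 30 µg/kg (18% and 19.4% of all genes). The median was 0.71, and none was lower with DESeq2 or at an unadjusted p below 0.05. The exporter Slc40a1 was not among those called. Slc48a1, which moves heme across lysosomal membranes, stood at 61.8, 56.0 and 56.0 CPM in vehicle, 91.9, 88.4 and 129 CPM at 10 µg/kg and 275, 135 and 329 CPM at 30 µg/kg (2.09, SE 0.22, adjusted p = 4.71e-08). Flvcr1, described as a heme exporter, was higher (1.504, SE 0.32, adjusted p = 0.000639). So was Heph, a copper ferroxidase (1.02, adjusted p = 0.00870), but not without the third 30 µg/kg liver (adjusted p = 0.0659). The plasma ferroxidase Cp (0.21, adjusted p = 0.626) was not called. Abcg2, an efflux pump, was not called at 30 µg/kg (0.40, adjusted p = 0.124), but was with RLE (adjusted p = 0.0453) and upper-quartile scaling (0.0492). It was called higher at 1 and at 10 µg/kg, calls lost under 3 and 5 of 15 alternatives.

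In iron storage and release, 3 of 9 tested genes were higher and none lower at 30 µg/kg, a called share close to the 37.4% of all genes: Fth1 and the genes of heme breakdown Hmox1 and Blvrb. The median was 0.18, and again none was lower with DESeq2 or at an unadjusted p below 0.05. Hmox1, which frees iron from heme, stood at 31.0, 15.01 and 19.2 CPM in vehicle and 93.4, 54.5 and 90.8 CPM at 30 µg/kg (1.87, SE 0.42, adjusted p = 0.00159). Blvrb gave 1.13 (SE 0.23, adjusted p = 0.000489). The iron chaperones Pcbp1 (0.00, adjusted p = 0.996) and Pcbp2 (-0.11, adjusted p = 0.613) were not called.

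Iron and oxygen sensors moved in both directions. Of 10 tested, 3 were higher and 3 lower at 30 µg/kg (18% and 19.4% of all genes), with a median of -0.12. Nfe2l2, the transcription factor whose known targets include Fth1 and Hmox1, stood at 77.9, 57.8 and 72.6 CPM in vehicle and 301, 197 and 325 CPM at 30 µg/kg (1.98, SE 0.16, adjusted p = 7.31e-10). Bach1, the heme-binding repressor of such targets, was higher at 1 µg/kg (0.84, adjusted p = 0.000248) and 30 µg/kg (0.68, adjusted p = 0.000639). It was called higher at 10 µg/kg too, a call lost under 7 of 15 alternatives.

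Aco1, whose product is iron regulatory protein 1 when it lacks its iron-sulfur cluster, stood at 253, 236 and 248 CPM in vehicle and 114, 158 and 102 CPM at 30 µg/kg (-0.98, SE 0.17, adjusted p = 7.30e-05). Ireb2, the gene of iron regulatory protein 2, was not called (-0.22, SE 0.21, adjusted p = 0.429). Epas1, which encodes hypoxia-inducible factor 2 alpha, was lower at 10 µg/kg (-0.79, adjusted p = 0.00216) and 30 µg/kg (-1.39, SE 0.18, adjusted p = 1.57e-06). The prolyl hydroxylase Egln2 was not called (-0.25, adjusted p = 0.267).

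**Figure D4:**
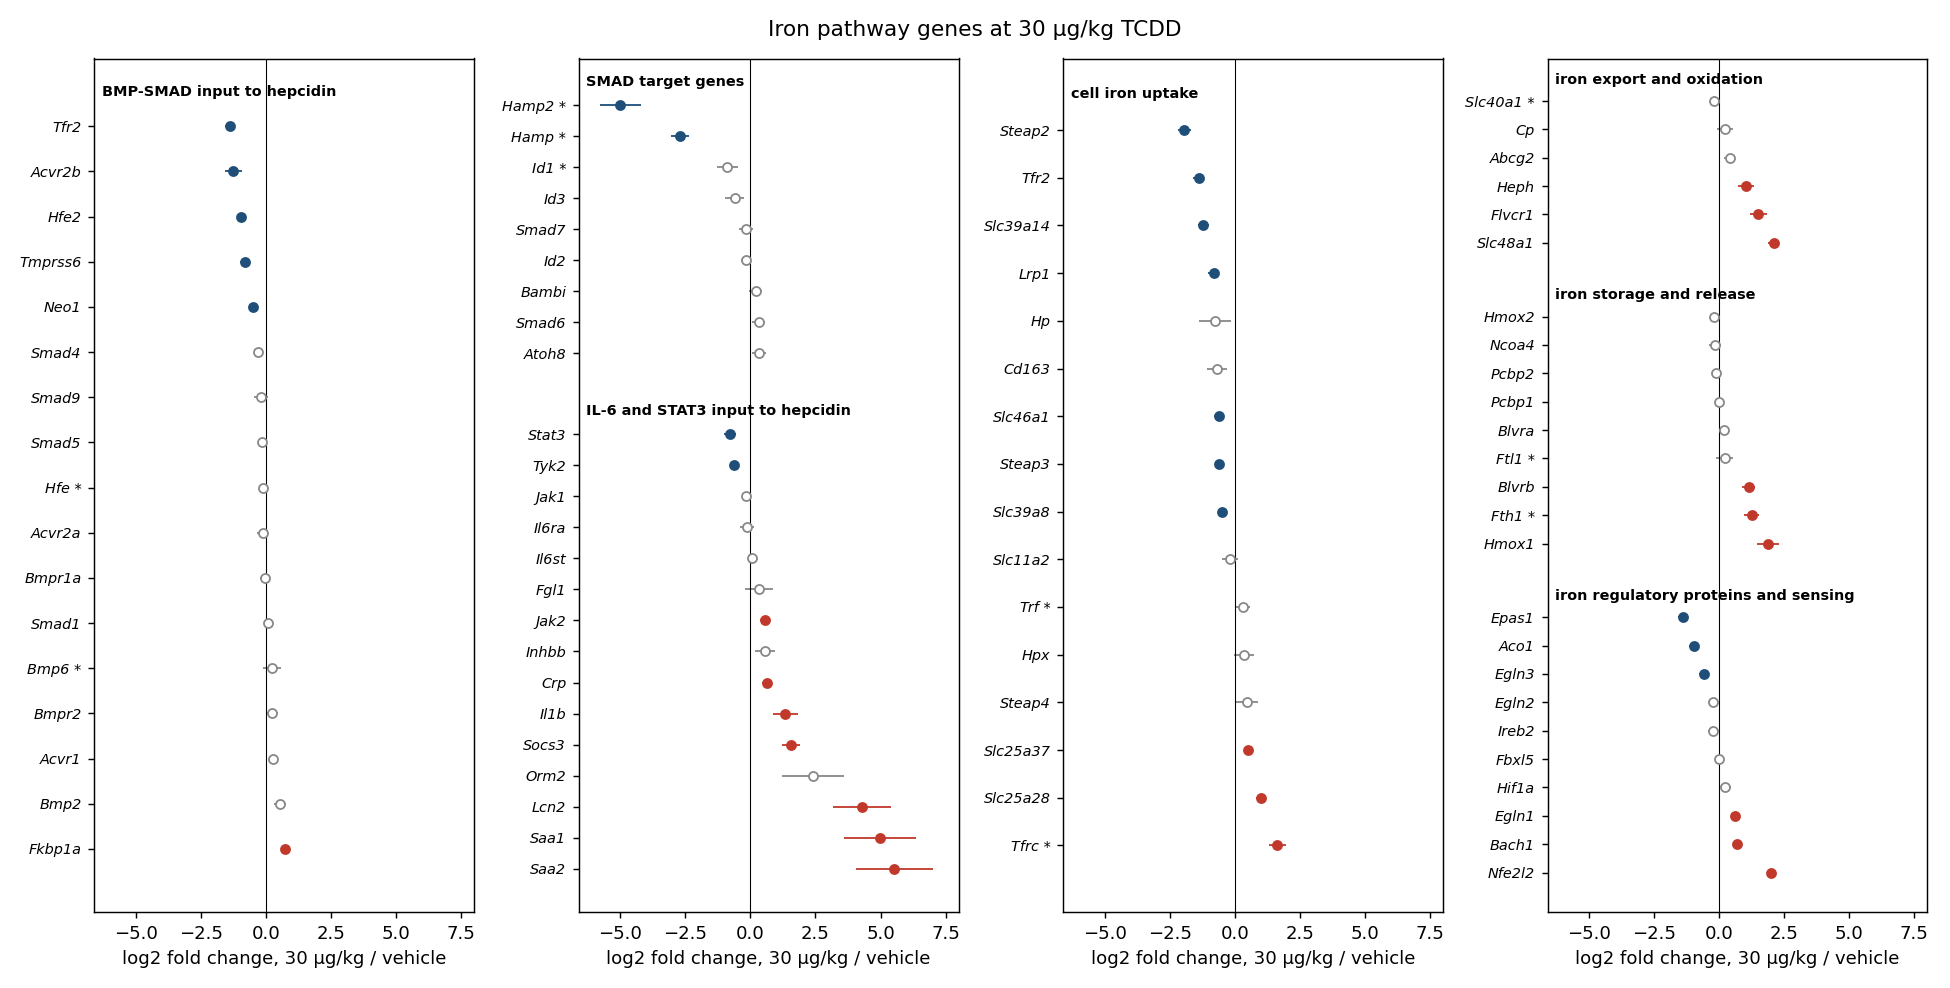
Log2 fold change at 30 µg/kg against vehicle for the tested genes of 7 iron lists, with the SE as a bar. Filled red points were called higher, filled blue points lower and open grey points neither, and asterisks mark the 10 iron genes. Hamp2 (-5.01) and Hamp (-2.71) lie farthest to the left, and Saa2 (5.52) and Saa1 (4.98) farthest to the right.

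Seen by liver at 30 µg/kg, the called iron genes did not all peak together. The third liver had the lowest Hamp (145 CPM) and Hamp2 (3.67 CPM) and the highest Tfrc (76.4 CPM), while Fth1 was highest in the first (3424 CPM). The second liver had the highest Hamp (255 CPM) and the lowest Tfrc (44.5 CPM) and Fth1 (2029 CPM), and it also had the highest hepatocyte marker sum of the group, 100566 CPM.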

How the data were processed

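RNA was sequenced from 27 liver samples, 9 groups of 3. Each deposited file lists counts, whole numbers of reads for each gene identifier. The submitters' processing notes name FastQC 0.11.2, cutadapt 1.4.1, TopHat 1.4.1, SAMtools 0.1.19, HTSeq 0.6.1 and DESeq, and the build GRCm38. Which annotation and strand setting the authors used is not given in the sources used here. Reads on no gene (5.62 to 11.9%) and on more than 1 gene (1.79 to 3.49%) stayed out of library sizes. Groups come from the labels. Symbols were matched for 40340 identifiers in GENCODE M21.

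Genes were kept by filterByExpr (minimum 10 counts), scaled by TMM and tested in R 4.3.3 with edgeR 4.0.16: a quasi-likelihood model by group (robust) over all 27 libraries, and a trend over dose rank. The SE is the log2 fold change divided by the square root of F. The procedure was tested on simulated data. Other settings tried were RLE or upper-quartile factors, DESeq2 1.42.0, 2 other count filters, non-robust dispersion, 6 libraries alone, a replicate block, another dose scale, index sets, and leaving out libraries or groups.

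Genes named are the 10 iron genes, up to 4 called and 2 uncalled genes with the highest levels per list, and the 3 nearest in pattern for Hamp, Hamp2, Bmp6 and Tfrc. Members and lists were chosen with earlier results of these data known.

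Markers of stellate cells (2 of 8 higher at 30 µg/kg, 1 lower), cholangiocytes (5 of 6 higher), recruited macrophages (5 of 8 higher) and B and plasma cells (4 of 6 higher) were also counted. Over all genes 18% were called higher and 19.4% lower at that dose. Intervals cover counting error only.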

Additional observations from a re-analysis of the deposited data

How the results depend on the processing

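Hamp, Hamp2, Tfrc and Fth1 at 30 µg/kg, Hamp2 at 10 µg/kg and Slc40a1 at 1 µg/kg kept their calls under all 15 alternatives, the replicate block included, and Hamp2 at 10 against 0.3 µg/kg under all 14. The number of iron genes called at 10 µg/kg was 2, and 4 in the 6 libraries alone, where Bmp6 and Id1 were added. Between 30 and 10 µg/kg it was 2, and 0 in the 6 libraries alone. In the trend it was 5, with 2 when the 30 µg/kg group was left out and 0 in the second index set only. Leaving out 1 replicate gave 1 to 2 calls at 1 µg/kg (2 without the second vehicle liver), 1 to 2 at 10 µg/kg (1 without the third 10 µg/kg liver), 1 to 2 between 10 and 0.3 µg/kg (2 without the third 0.3 µg/kg liver), 0 to 2 between 30 and 10 µg/kg, 4 to 5 at 30 µg/kg and 3 to 6 in the trend. Hp at 1 µg/kg was 0.90, not called, and ran from -1.03 (without the first 1 µg/kg liver) to 1.38 (without the second) when 1 liver was left out. The cause of these changes was not tested, except that fewer samples entered the fits.

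With the replicate block the counts were 1, 2 and 4 at 1, 10 and 30 µg/kg and 5 in the trend, as without it. No pairing by replicate number was seen, though such a check could miss one. Correlations of same-numbered livers ran from -0.335 to 0.337, with a mean of 0.0098 beside -0.0046 for differently numbered ones. Of 27 livers, 10 correlated best with their own number. RLE scaling moved the median of all genes at 30 µg/kg by 0.11 on the log2 scale, and changed the direction of no call named above. In the shallow 0.3 µg/kg library, depth limits Bmp6, Id1 and Tfrc.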
